A study of Mus musculus with 4 samples.

Results

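The expression of 10 genes of the integrated stress response was followed in 4 mouse mammary tumor cell lines. The genes were Atf4, Atf5, Ddit3, Trib3, Asns, Chac1, Psat1, Phgdh, Ddit4 and Ppp1r15a. They were chosen by symbol from a table of 38713 genes, all 10 were found there, and all 10 were among the 12998 genes that passed the filter on low values and were tested. The 2 JNK_WT lines (replicates 1 and 2, genotype p53-/-) came from tumors of mice carrying floxed Trp53 and a Cre recombinase driven by the Wap promoter, which is active in luminal mammary epithelium. The 2 JNK_KO lines (replicates 1 and 3, genotype p53-/- JNK-/-) had the same alleles plus floxed Mapk8 and floxed Mapk9, which encode JNK1 and JNK2. All mice were of the C57BL/6 strain, and both groups were labelled p53-/-. Each line was grown from 1 tumor and gave 1 RNA library, and the ages of the mice are not given in the sources used here.

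The integrated stress response begins with kinases that sense a shortage of amino acids, unfolded protein, viral RNA or a lack of heme. They phosphorylate the alpha subunit of the initiation factor eIF2, which slows translation in general but favors translation of the ATF4 mRNA. ATF4 then switches on genes for amino acid synthesis, amino acid uptake and tRNA charging, and, under lasting stress, genes linked to cell death such as Ddit3, which encodes CHOP. Because ATF4 is controlled largely at translation, its mRNA level is not a measure of its protein level.

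ATF4 is known to bind, together with C/EBP proteins, a sequence called the C/EBP-ATF response element (CARE). The letters TGATGNAAN were searched on both strands of RefSeq promoter windows (build GRCm38.p6), which run from 250 bases before to 50 bases after each start site. A match was found in 3 of the 10 genes (Asns, Chac1 and Trib3), while 3.90% of all 32544 windows, or 4.50% of 27025 genes, held one. The 3 stretches are shown 5′ to 3′ on the strand of the gene, with the match in capitals, because they are the places in these windows where the genes carry the letters of the element. The Asns match began 23 bases upstream of the start site (chr6:7693210-7693292, minus strand), the Chac1 match began 194 bases upstream (chr2:119350992-119351116, plus strand), and the Trib3 match began 13 bases after the start site (chr2:152344031-152344055, minus strand). Distances are counted from RefSeq start sites, which differ from the ends of the GENCODE gene positions given below. The Asns match (7693224 to 7693232) lies inside its GENCODE span, and the Trib3 match (152344039 to 152344047) lies just outside its own.
Asns: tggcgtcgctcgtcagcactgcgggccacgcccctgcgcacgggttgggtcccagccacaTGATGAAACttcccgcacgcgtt
Chac1: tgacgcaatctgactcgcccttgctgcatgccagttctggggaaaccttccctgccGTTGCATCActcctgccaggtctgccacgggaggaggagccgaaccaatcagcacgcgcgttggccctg
Trib3: agctcaggTTTACATCAgccgggcg
For the other 7 genes these letters were not in the window, which says nothing of elements elsewhere.

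The libraries were compared first on the targeted genes. Levels are given as FPKM, fragment counts scaled to exon length and library size. In the order JNK_WT replicate 1, JNK_WT replicate 2, JNK_KO replicate 1 and JNK_KO replicate 3, Mapk8 measured 23.9, 19.1, 4.30 and 4.27 FPKM. In that order Mapk9 measured 29.7, 24.3, 12.6 and 8.66 FPKM, so transcripts of both kinases were lower in each JNK_KO line without being absent. On protein, the paper reports no JNK detected by immunoblot in JNK_KO tumor cells. A value per gene does not tell a transcript of a deleted allele from one of an intact allele. Trp53, floxed in all mice, measured 1.55, 4.15, 5.72 and 4.28 FPKM. FPKM summed to between 775960 and 921595 per library. The table does not give the read depth of each library, so no counting interval was computed. Luminal epithelial markers summed to 4113, 3204, 1355 and 2848 FPKM over 10 genes in the same order, and all 10 passed the filter on low values. The 6 endothelial markers were all under 1 FPKM in every library. Of 9 leukocyte markers, 6 were under 1 FPKM throughout. The 10 fibroblast markers summed to 13.3 and 4.36 FPKM in the JNK_WT lines and to 109.2 and 204 FPKM in the JNK_KO lines, and 3 of them stayed under 1 FPKM in all libraries. These markers did not all move together, and of the 5 tested 4 had a log2 difference above 0 and 1 below. Dcn, singled out after its values were seen, made up most of the JNK_KO sums (79.7 and 162 FPKM, against 0.430 and 0.389 FPKM in the JNK_WT lines). Pdgfra, also named after its values were seen, was at 0.325 and 0.183 FPKM in the JNK_WT lines and at 24.7 and 7.82 FPKM in the JNK_KO lines. Pdgfrb, named likewise, was at 0.0404 and 0.194 FPKM against 2.17 and 2.99 FPKM. Col1a1 was at 0.374 to 0.527 FPKM in all 4 lines. Col1a2 had a lower mean in JNK_KO than in JNK_WT cells (1.63 against 5.36 FPKM). That Col1a2 order was set by JNK_WT replicate 1 (10.3 FPKM), since JNK_WT replicate 2 (0.374 FPKM) lay below both JNK_KO lines. The 8 basal markers summed to 26.3 and 736 FPKM in the JNK_WT lines and to 38.6 and 376 FPKM in the JNK_KO lines. Since these are whole cultures, fewer cells of a kind and less RNA per cell cannot be told apart.

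The 10 genes were expressed in every line, and none of them passed the test between genotypes, which could detect large differences only. Levels are compared between genes as FPKM, which are scaled to transcript length. Atf4 had the highest mean over the 4 lines (192 FPKM), followed by the biosynthetic enzymes Psat1 (153), Asns (151) and Phgdh (133), then by Ddit4 (98.5) and Atf5 (90.6). The remaining genes were lower, with Trib3 at 33.8, Ddit3 at 26.6, Chac1 at 18.4 and Ppp1r15a at 16.9 FPKM. Ranges over the 4 lines overlapped for every pair of neighbors in this order except Atf5 and Trib3, where the lowest Atf5 value (60.5 FPKM) lay above the highest Trib3 value (39.7 FPKM).

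**Figure D1:**
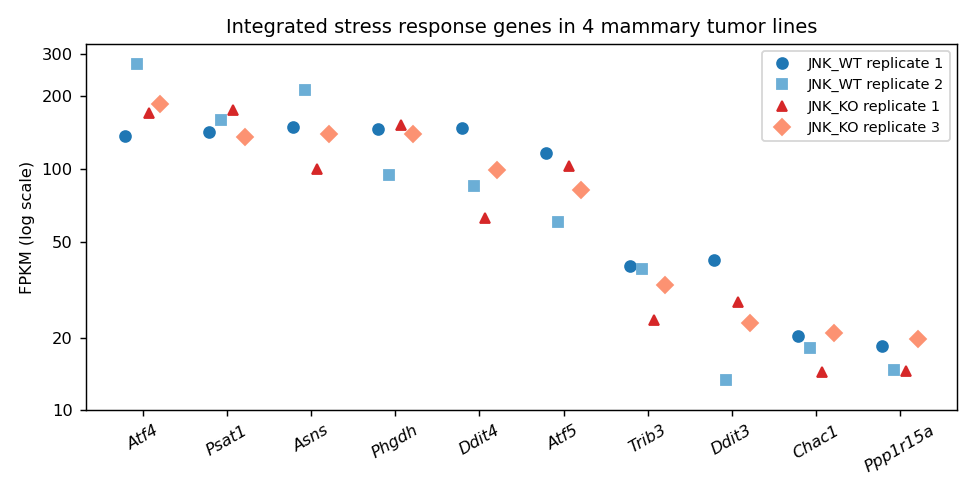
FPKM (log scale) of the 10 integrated stress response genes in each of the 4 lines, ordered by mean level; each point is 1 library. The points of the genotypes are intermixed for 8 genes, and both JNK_KO lines lie below both JNK_WT lines only for Asns and Trib3.

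The 3 transcription factors were examined first. Atf4 (chromosome 15, 80255184 to 80257541, plus strand) was at 137 FPKM in JNK_WT replicate 1, 273 in JNK_WT replicate 2, 170.3 in JNK_KO replicate 1 and 186 in JNK_KO replicate 3. Both JNK_KO lines thus lay between the JNK_WT lines, which marked the lowest and the highest value. JNK_WT averaged 205 ± 95.8 and JNK_KO 178 ± 11.2 FPKM (SD, n = 2 lines each). The log2 difference (JNK_KO minus JNK_WT, on log2(FPKM + 1)) was -0.12 (SE 0.39, 95% interval -1.16 to 0.92, limma adjusted p-value 0.999). Atf5 (chromosome 7, 44812256 to 44816658, minus strand), a relative of Atf4 that is also translated preferentially under stress, was at 117 and 60.5 FPKM in the JNK_WT lines and at 103 and 81.8 FPKM in the JNK_KO lines. The groups overlapped in the same way, but the order of the JNK_WT lines was the opposite of that of Atf4, and the log2 difference was 0.13 (SE 0.39, 95% interval -0.92 to 1.17).

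Ddit3 (chromosome 10, 127290774 to 127296288, plus strand), which encodes the death-linked factor CHOP, varied most among the 10 genes. It reached 42.1 FPKM in JNK_WT replicate 1 but 13.3 FPKM in JNK_WT replicate 2, with 28.1 and 23.0 FPKM in the JNK_KO lines, a 3.17-fold span that was set by the JNK_WT lines alone. The log2 difference between genotypes was 0.09 (SE 0.59, 95% interval -1.47 to 1.66, limma adjusted p-value 0.999). Ddit3 FPKM amounted to 30.7% of Atf4 FPKM in JNK_WT replicate 1 and to 4.87% in JNK_WT replicate 2, with 16.5% and 12.4% in the JNK_KO lines. The transcripts of the factor and of its target CHOP were therefore ordered oppositely in the JNK_WT lines.

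The feedback regulators and stress effectors were examined next. Trib3 (chromosome 2, 152337422 to 152344032, minus strand), a pseudokinase induced by ATF4 and CHOP that restrains them in turn, was at 39.7 and 38.6 FPKM in the JNK_WT lines and at 23.7 and 33.1 FPKM in the JNK_KO lines. Both JNK_KO values lay below the nearly equal JNK_WT values, with means of 39.2 ± 0.769 and 28.4 ± 6.62 FPKM (SD, n = 2 each). The log2 difference of -0.47 (SE 0.27, 95% interval -1.19 to 0.25) did not pass the test (limma adjusted p-value 0.854). Ppp1r15a (chromosome 7, 45522916 to 45526268, minus strand), which encodes GADD34, the stress-induced subunit that directs dephosphorylation of eIF2 alpha, was at 18.5 and 14.7 FPKM in the JNK_WT lines and 14.5 and 19.7 FPKM in the JNK_KO lines. Each genotype had a high and a low line, and the log2 difference was 0.04 (SE 0.30, 95% interval -0.76 to 0.84).

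Chac1 (chromosome 2, 119351229 to 119354381, plus strand), an enzyme that degrades glutathione, was at 20.4 and 18.1 FPKM in the JNK_WT lines and at 14.4 and 20.9 FPKM in the JNK_KO lines. Its groups overlapped, since the JNK_KO lines held both the lowest and the highest value, and the log2 difference was -0.14 (SE 0.30, 95% interval -0.94 to 0.66). Ddit4 (chromosome 10, 59949669 to 59951834, minus strand), which encodes the mTORC1 inhibitor REDD1, was at 148 and 85.0 FPKM in the JNK_WT lines and at 62.5 and 98.6 FPKM in the JNK_KO lines. JNK_WT replicate 1 was the highest and JNK_KO replicate 1 the lowest, and the groups overlapped. The log2 difference was -0.51 (SE 0.40, 95% interval -1.57 to 0.56, limma adjusted p-value 0.934).

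The enzymes of amino acid synthesis were among the more abundant of the 10 genes. Phgdh and Psat1 encode the first enzymes of serine synthesis, and Asns encodes asparagine synthetase. Phgdh (chromosome 3, 98313170 to 98339990, minus strand) was at 147 and 94.5 FPKM in the JNK_WT lines and at 152 and 140.4 FPKM in the JNK_KO lines, with JNK_WT replicate 2 standing below the other 3 lines. Psat1 (chromosome 19, 15904678 to 15947337, minus strand) was at 142 and 159.6 FPKM in the JNK_WT lines and at 176 and 136 FPKM in the JNK_KO lines, the narrowest span of the 10 genes (1.30-fold). The groups overlapped for both, with log2 differences of 0.31 for Phgdh (SE 0.30, 95% interval -0.49 to 1.10) and 0.04 for Psat1 (SE 0.25, 95% interval -0.63 to 0.70).

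Asns (chromosome 6, 7675169 to 7693254, minus strand) had the largest absolute log2 difference of the 10 genes. It was at 149.6 and 213 FPKM in the JNK_WT lines and at 100.1 and 139.9 FPKM in the JNK_KO lines. Both JNK_KO lines lay below both JNK_WT lines, although JNK_KO replicate 3 and JNK_WT replicate 1 were close, and the means were 181 ± 44.6 and 120.0 ± 28.2 FPKM (SD, n = 2 each). The log2 difference was -0.59 (SE 0.31, 95% interval -1.42 to 0.24) with a limma adjusted p-value of 0.826.

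**Figure D2:**
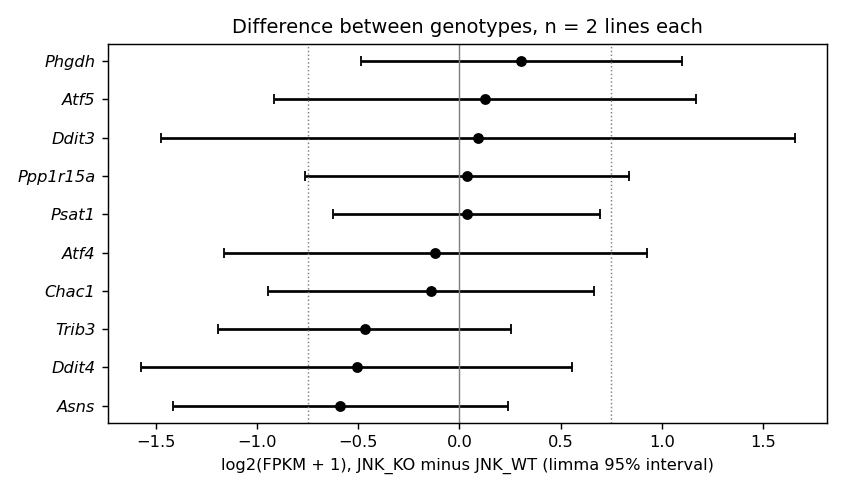
Log2 difference of each gene (JNK_KO minus JNK_WT on log2(FPKM + 1), 2 lines each) with its 95% limma interval; the solid line marks 0 and dotted lines mark 0.75 in either direction. All 10 intervals include 0, and the differences run from -0.59 for Asns to 0.31 for Phgdh.

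A gene was called at a limma adjusted p-value under 0.05 (Benjamini-Hochberg over all genes tested) with an absolute log2 difference over 0.75. Of the 10 genes 0 were called and 0 had an unadjusted p-value under 0.05, while 0% of the 12998 genes tested were called and 7.63% had an unadjusted p-value under 0.05. None of the 10 genes had an absolute log2 difference over 0.75, against 9.25% of all genes tested that were higher and 6.43% that were lower in JNK_KO cells. Groups did not overlap for 2 of the 10 genes, Asns and Trib3, both lower in JNK_KO cells, whereas 16.7% of all genes tested were lower and 18.3% higher without overlap. The median log2 difference was -0.04 over the 10 genes and 0.01 over all genes tested, with 5 genes above and 5 below 0. With 2 lines against 2 the intervals are wide, so a difference of the size seen for Asns or Ddit4 could not be told from none.

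Differences within a genotype were larger, for most of the 10 genes, than those between genotypes. The median absolute log2 difference within JNK_WT was 0.57, that within JNK_KO was 0.39, and that between genotype means was 0.13. Over all genes tested these values were 0.43, 0.33 and 0.27. A mean over 2 lines varies less than a single line by construction, so the last value is not on the same footing as the others. Between the JNK_WT lines only Ddit3 differed by more than 1 on the log2 scale, with a replicate 2 minus replicate 1 difference of -1.59. Of all genes tested, 8.46% were lower and 9.62% higher in replicate 2 by more than 1. Atf4 came close in the other direction (0.99). Atf5 (-0.94), Ddit4 (-0.79) and Phgdh (-0.63) were lower in replicate 2, as Ddit3 was, by less than 1. Between the JNK_KO lines none of the 10 genes differed by more than 1, against 11.5% of all genes tested, and the widest gap was that of Ddit4 (0.65).

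The 10 genes did not share an order of the lines. Relative to the mean of the 4 lines, JNK_WT replicate 2 was high for Atf4 (0.55) and Asns (0.55) and low for Ddit3 (-0.84), Atf5 (-0.53) and Phgdh (-0.47). JNK_WT replicate 1 held the highest value of 4 genes (Atf5, Ddit3, Trib3 and Ddit4), and each of the other 3 lines held that of 2 genes. JNK_KO replicate 1 held the lowest value of 5 genes (Trib3, Ppp1r15a, Asns, Chac1 and Ddit4). JNK_WT replicate 2 was also the line with the highest basal marker sum, and whether this bears on its Atf4 and Ddit3 levels was not tested.

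**Figure D3:**
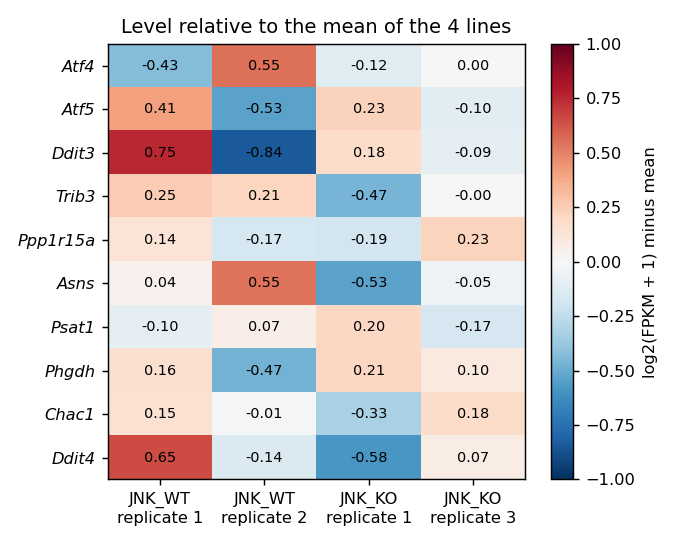
Level of each gene in each line as log2(FPKM + 1) minus the mean of that gene over the 4 lines; red is above and blue below the mean, and the value is written in each cell. The strongest colors are those of Ddit3 in the JNK_WT columns (0.75 and -0.84), and Atf4 takes the opposite signs there (-0.43 and 0.55).

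For Ddit3, the gene with the widest range, the tested genes outside the pathway and marker lists with the most similar profile were Cacna1a, Il34 and Ephx2. Similarity was the Euclidean distance between profiles centered on their own means, over 4 lines, and was 0.14 for each of them. A total of 213 tested genes lay within a distance of 0.5, so many genes share such a profile over only 4 lines.

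Asns was the only one of the 10 genes on chromosome 6, so its difference was set beside that of its chromosome. The 628 tested genes of chromosome 6 had a median log2 difference of -0.59, equal to that of Asns after rounding, and 56.2% of them were lower in both JNK_KO lines than in either JNK_WT line. The medians of the other chromosomes that carry the 10 genes lay between -0.07 (chromosome 7) and 0.12 (chromosomes 2, 3 and 19). The match was not as close line by line. Asns stood at 0.04 and 0.55 in the JNK_WT lines and -0.53 and -0.05 in the JNK_KO lines relative to its mean, where the chromosome 6 median stood at 0.35 and 0.27, and at -0.33 and -0.22. The 20 nearest tested genes of Asns, 10 on each side, had a median difference of -0.23, and 9 of them were lower in both JNK_KO lines. From exome sequencing, the paper describes chromosome 6 as amplified in JNK_WT tumor cells and in some of the JNK_KO tumor cells. Copy number was not examined here. The part of the chromosome-wide shift in the Asns value was not tested.

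**Figure D4:**
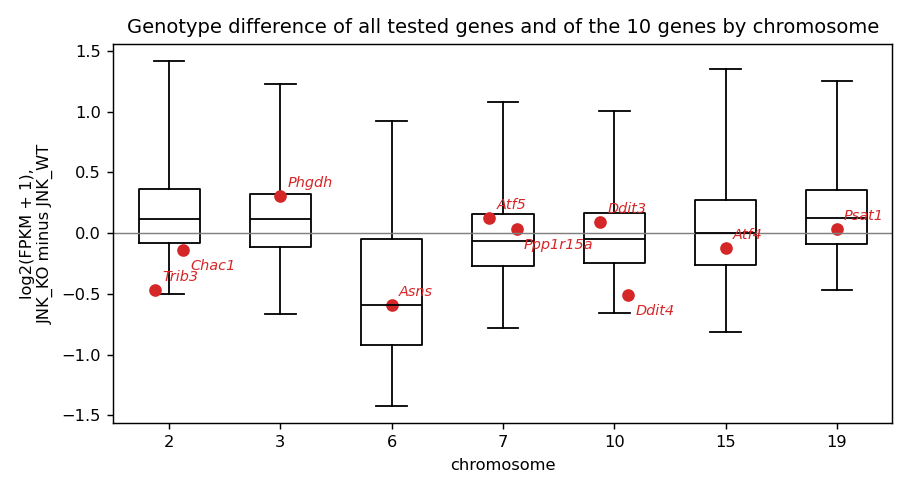
Log2 difference (JNK_KO minus JNK_WT) of all tested genes on each chromosome that carries one of the 10 genes; boxes show quartiles and median, whiskers the 5th and 95th percentiles, and red points the 10 genes. The chromosome 6 box lies below the others with a median of -0.59, and Asns sits on that median.

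To place the 10 genes in their pathway, 109 further genes in 10 lists were examined, of which 107 were tested. None was called (0 genes by limma), and 9 (8.41%) had an unadjusted p-value under 0.05, close to the 7.63% of all genes tested. The median log2 difference of the 107 genes was 0.00, with 54 above and 53 below 0. For 21 genes both JNK_KO lines exceeded both JNK_WT lines, and for 23 they were below them, against 18.3% and 16.7% of all genes tested, so both counts were near the background. Slc7a5 was not analysed here, and Fgf21 did not pass the filter on low values. These lists were chosen with earlier results of these data known, so their counts are descriptions.

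The eIF2 alpha kinases start the response, and of the 4, Eif2ak2 had the largest difference. Eif2ak2 encodes PKR, which senses double-stranded RNA and is itself induced by interferon. It was at 14.4 and 9.95 FPKM in the JNK_WT lines and at 31.7 and 20.6 FPKM in the JNK_KO lines. All JNK_KO values lay above the JNK_WT values, with a log2 difference of 1.03 (SE 0.36, unadjusted p-value 0.0386, limma adjusted p-value 0.607). Eif2ak3, which encodes PERK, the sensor of unfolded protein in the endoplasmic reticulum, was lower in both JNK_KO lines (9.56 and 11.3 FPKM) than in the JNK_WT lines (14.7 and 16.2 FPKM). Its log2 difference was -0.53 (SE 0.27), and it too lies on chromosome 6. Eif2ak1 (HRI, the heme sensor) and Eif2ak4 (GCN2, the sensor of uncharged tRNA) had overlapping groups and differences of -0.04 and -0.13. Among 8 subunits of eIF2 and its exchange factor eIF2B, the groups overlapped for 6. The largest differences were those of Eif2b2 at -0.81 (SE 0.31) and Eif2s1, the subunit that the kinases phosphorylate, at -0.47 (SE 0.27), both without overlap. Of all genes tested, 16.7% were lower and 18.3% higher in JNK_KO cells without overlap.

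Other enzymes of amino acid synthesis did not follow a single direction. Of 7 serine, glycine and folate-linked enzymes, 6 lay below 0 and 3 of them had groups apart (16.7% of all genes tested were lower without overlap), with a list median of -0.38. Mthfd2, a mitochondrial folate enzyme and a known ATF4 target, was at 136 and 103 FPKM in the JNK_WT lines and at 64.2 and 61.2 FPKM in the JNK_KO lines, a log2 difference of -0.91 (SE 0.25, unadjusted p-value 0.0172, limma adjusted p-value 0.468). Shmt1 differed by -0.60 with overlapping groups. In the list of 8 other enzymes of amino acid synthesis and transsulfuration, Pycr1, the last step of proline synthesis, was lower by -1.15 (SE 0.41, unadjusted p-value 0.043). It was at 44.0 and 22.4 FPKM in the JNK_WT lines and at 15.4 and 12.1 FPKM in the JNK_KO lines. Cbs, the first step of transsulfuration, was higher in JNK_KO cells by 1.77 (SE 0.43, unadjusted p-value 0.012, limma adjusted p-value 0.432), at 1.98 and 2.59 FPKM against 7.07 and 14.4 FPKM. Glul, glutamine synthetase, differed by 1.20 (SE 0.95) with overlapping groups.

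Amino acid transporters and tRNA synthetases had list medians from -0.15 to 0.21. The 9 transporters tested had a median log2 difference of -0.15, with Slc7a3 at 0.85 (from values of 0.586 to 2.77 FPKM) and Slc1a4 at -0.62, and neither had an unadjusted p-value under 0.05. The 12 cytosolic tRNA synthetases known as ATF4 targets had a median of -0.12 (-0.0055 without JNK_WT replicate 1). Their spread over the lines was narrow (median range 0.45 on the log2 scale, against 0.78 for all genes tested). Of these 12 genes 9 lay below 0. Groups did not overlap for 5 that were lower and 1 that was higher, against 16.7% lower and 18.3% higher of all genes tested. The largest difference among the 12 was that of Gars. It was at 273 and 227 FPKM in the JNK_WT lines and at 125 and 142 FPKM in the JNK_KO lines. Its log2 difference was -0.89 (SE 0.23, unadjusted p-value 0.0153, limma adjusted p-value 0.458), and Wars followed with -0.57. The 17 mitochondrial tRNA synthetases, which are not usual ATF4 targets, had a median of 0.21. This median was 0.074 without JNK_KO replicate 1 and 0.086 without JNK_WT replicate 1. Of the 17 genes, 5 were higher and 2 lower without overlap. The largest differences were those of Lars2 and Pars2, both at 0.58. Lars2 had overlapping groups and averaged 857 FPKM over the 4 lines, where Iars2, next by mean level, averaged 34.5 FPKM. Pars2 was at 1.94 and 4.46 FPKM in the JNK_WT lines and at 5.14 and 4.85 FPKM in the JNK_KO lines, without overlap.

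The list of other ATF4 and CHOP targets and partners held the largest single difference. Gadd45a, a growth arrest and DNA damage gene, was at 119.9 and 94.3 FPKM in the JNK_WT lines and at 23.7 and 36.1 FPKM in the JNK_KO lines. Its log2 difference was -1.83 (SE 0.31, unadjusted p-value 0.00292, limma adjusted p-value 0.256). Ndrg1, a stress and hypoxia responsive gene, was higher by 0.81 (SE 0.26, unadjusted p-value 0.0311), and Stc2, a secreted glycoprotein gene, by 1.03 (SE 0.56). The list as a whole was at -0.12, with 7 of 17 genes above 0. Gadd45a, Mthfd2 and Gars, the most negative of their lists, all lie on chromosome 6 with Asns. The 8 pathway genes on chromosome 6, Asns included, had a median of -0.63 and 6 had lower, non-overlapping JNK_KO values, where 56.2% of all tested chromosome 6 genes did. The 109 on other chromosomes had a median of 0.04 with 19 lower and 21 higher without overlap, near the 16.7% and 18.3% of all genes tested. Relative to the chromosome 6 median, Gadd45a stood at -1.24, Mthfd2 at -0.32, Gars at -0.31 and Pdia4 at -0.09. Asns and Eif2ak3 stood at 0.00 and 0.06, and Bcat1 and Edem1, which like Pdia4 are given to complete the 8, at 0.84 and 1.24.

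**Figure D5:**
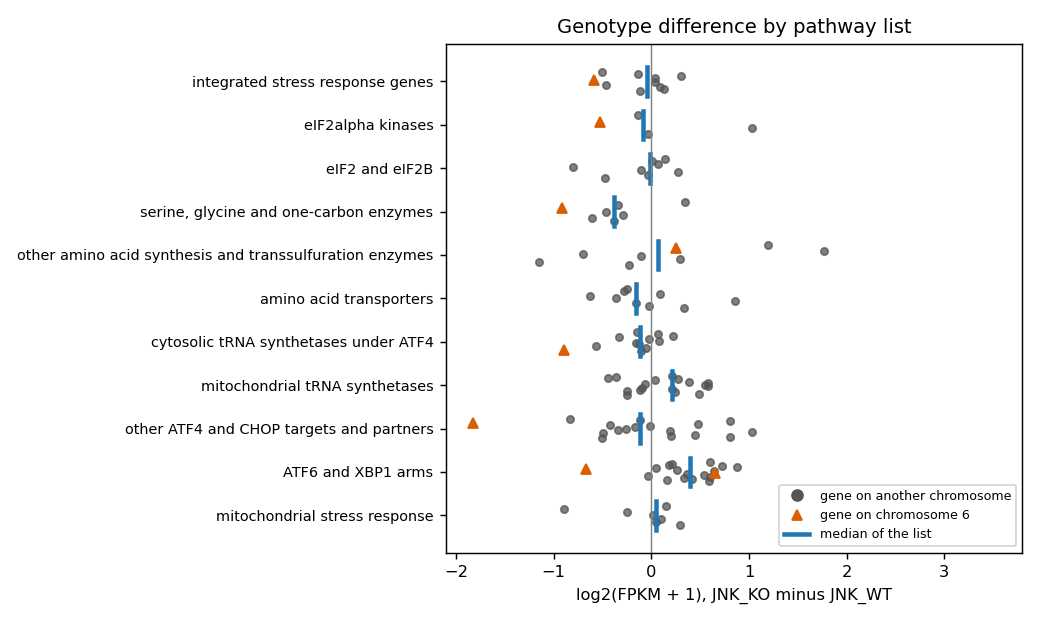
Log2 difference (JNK_KO minus JNK_WT on log2(FPKM + 1)) of each tested gene by pathway list; each point is a gene, triangles mark genes on chromosome 6 and the blue bar is the list median. The 10 integrated stress response genes center on -0.04, the ATF6 and XBP1 arms lie furthest to the right with a median of 0.39, and several of the lowest points in other lists are chromosome 6 genes.

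The other arms of the unfolded protein response, which run through ATF6 and XBP1 and raise chaperones of the endoplasmic reticulum were examined beside the 10 genes. Of 18 such genes, 16 lay above 0, as did 6680 of the 12998 genes tested, and the list median was 0.39. Groups did not overlap for 8 genes that were higher and for 1, Pdia4, that was lower, where 18.3% and 16.7% of all genes tested were higher and lower without overlap. Hspa5, which encodes the chaperone BiP and was named after its values were seen, was at 242 and 204 FPKM in the JNK_WT lines and at 412 and 274 FPKM in the JNK_KO lines (log2 difference 0.59, SE 0.30). The largest differences were those of Herpud1 at 0.88 (SE 0.32, unadjusted p-value 0.0469, limma adjusted p-value 0.645) and the chaperone Calr at 0.72 (SE 0.34). JNK_KO replicate 1 was the highest line for 12 of the 18 genes, yet it held the lowest value of 5 of the 10 integrated stress response genes.

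These arms act through a different promoter sequence, the ER stress element. The letters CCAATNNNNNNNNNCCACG were searched on both strands. A match was found in 6 of 15 genes of the ATF6 and XBP1 arms with a window, in 0 of the 10 integrated stress response genes, and in 0.120% of all windows. The stretch of Hspa5 (chr2:34771965-34772089, plus strand) is shown in the same way as a point of comparison, with the element in capitals.
Hspa5: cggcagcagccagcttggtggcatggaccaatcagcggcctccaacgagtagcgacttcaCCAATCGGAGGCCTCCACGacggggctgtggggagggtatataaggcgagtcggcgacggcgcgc
CARE letters were found in 5 of 8 cytosolic tRNA synthetase genes with a window and in 0 of 14 mitochondrial ones. They were also in 5 of 15 other targets and partners, 2 of 6 transporters and 2 of 7 other synthesis enzymes. Of the eIF2 and eIF2B genes 1 of 7 held them, and of the ATF6 and XBP1 arms 1 of 15. They were in 0 of 4 kinases, 0 of 6 mitochondrial stress genes and 0 of 6 serine, glycine and folate-linked enzymes, Mthfd2 included. The letters thus did not mark every known ATF4 target. The elements are matches of letters and were not tested for binding.

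The mitochondrial stress list of 7 genes had a median of 0.05. Atf7 is a factor of the CREB and ATF family, not a mitochondrial chaperone or protease like the rest of the list. It was lower by -0.89 (SE 0.30, unadjusted p-value 0.0349, limma adjusted p-value 0.581) at levels of 1.65 to 4.29 FPKM. Hspd1, the mitochondrial chaperonin, differed by 0.30. The fibroblast marker sum, carried mainly by Dcn, was higher in both JNK_KO lines, and its part in any of these differences was not tested. Some of the 10 genes overlap other annotated genes or have a pseudogene. Ddit3 overlaps Mars and Gm4189, Atf5 overlaps Nup62 and Il4i1, and Ppp1r15a overlaps Tulp2, each on the opposite strand, and the reads were not stated to keep strand. Psat1 holds a processed pseudogene and Phgdh has one elsewhere (Phgdh-ps1), so short reads could be split between copies.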

How the data were processed

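RNA from 4 mouse mammary tumor cell lines (2 JNK_WT, 2 JNK_KO) was sequenced. The authors trimmed single-end reads, sampled them to a similar number, aligned them to mm10 (GRCm38) with Bowtie2 and TopHat2 2.0.14 and deposited FPKM per gene and library from Cufflinks 2.2.1. The annotation is not given in the sources used here. Of 38741 rows, 27 with symbols turned into dates and 1 without a value were left out.

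Genes that reached 1 FPKM in 2 or more libraries were tested on log2(FPKM + 1) with limma 3.58.1 (eBayes with trend, two-sided) in R 4.3.3. Tested on simulated data, the fit recovered the sizes of the changes put in but called none of the smallest, which exceeded any difference of the 10 genes. The simulated spreads were shuffled over the genes, so the link between level and spread was not kept. A log2 difference on this scale understates the change of low genes. FPKM are not counts, so no count model was fitted. An exact permutation test of 2 against 2 lines cannot reach 0.05. Replicates are separate lines. Positions came from GENCODE M21 (GRCm38), sequences from RefSeq (GRCm38.p6). Named from the further lists were the eIF2 alpha kinases and, per list, the 2 genes with the largest absolute difference and those with an unadjusted p-value under 0.05. The 10 genes and all lists were chosen with earlier results of these data known. Alternatives were other pseudocounts, filters, scalings, variance models and fits without 1 replicate. Python 3.11.15 and pandas 2.3.3 were used.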

Additional observations from a re-analysis of the deposited data

How the results depend on the processing

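No paired analysis was possible because replicate 1 is the sole number found in both genotypes, and nothing in the labels links those lines. The count of called genes among the 10 stayed at 0 under every alternative, an adjusted p-value threshold of 0.1 included, and the lowest limma adjusted p-value of any of them in another setting was 0.526. Over all 12998 genes, none was called with the reported settings and under most alternatives, but 10 were with a pseudocount of 0.1, 14 with 0.5, 14 without the variance trend and 25 at the threshold of 0.1. Under the 8 alternatives that kept all libraries, all 80 values of the 10 genes kept their direction. Many of these values could not change, because alternatives in the filter or the variance model leave each difference as it is. Only the other pseudocounts and scalings could have changed a direction. Without 1 replicate, the median log2 difference over the 10 genes ranged from -0.28 (without JNK_WT replicate 2) to -0.052, and the genes over 0.75 numbered 0 to 2. Those with groups apart numbered 5 to 7, but 1 line overlaps with 2 lines less often than 2 lines do. The share of all genes with groups apart was not computed for fits without 1 replicate. Asns, Trib3 and Ddit4 stayed lower in JNK_KO cells in these fits, from -0.84 to -0.34, -0.70 to -0.24 and -0.90 to -0.11. The other 7 changed direction, with ranges of -0.61 to 0.37 for Atf4, -0.34 to 0.59 for Atf5, -0.71 to 0.89 for Ddit3, -0.17 to 0.24 for Ppp1r15a, -0.15 to 0.22 for Psat1, -0.010 to 0.62 for Phgdh and -0.40 to 0.11 for Chac1. The median of the ATF6 and XBP1 arms ranged from 0.30 to 0.50, and that of the serine, glycine and folate-linked enzymes from -0.55 to -0.25. The medians of the kinase, eIF2, transporter, other synthesis, other target and mitochondrial stress lists changed sign in some of these fits. With 2 lines per group, and with the depth of each library not given in the table, small differences could not be detected.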

Other observations

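Bcat1, which starts the breakdown of branched-chain amino acids, and Glul, glutamine synthetase, were higher in the replicate 1 line than in the other line of each genotype. Bcat1, singled out after its values were seen, was at 8.02 FPKM in JNK_WT replicate 1 and 9.40 FPKM in JNK_KO replicate 1, and at 0.275 FPKM in JNK_WT replicate 2 and 0.571 FPKM in JNK_KO replicate 3. Glul was at 44.5 and 71.5 FPKM in the replicate 1 lines and at 7.53 and 27.0 FPKM in the others. The replicate 1 lines were also those with the low basal marker sums of 26.3 and 38.6 FPKM. Nupr1, a stress-induced chromatin protein gene and also singled out afterwards, was at 526 FPKM in JNK_KO replicate 3 and between 101 and 215 FPKM in the other 3 lines.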
